A study of Rattus norvegicus with 34 samples.

Results

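Prostaglandin synthesis, breakdown and reception were followed through 10 genes in the left ventricle (LV) and in peripheral blood mononuclear cells (PBMCs) of rats after myocardial infarction (MI). The genes were Ptgs1, Ptgs2, Ptges, Ptgis, Ptgds, Tbxas1, Hpgd, Ptger2, Ptger4 and Ptgfr. All 10 were found by symbol among the 29214 transcript clusters of the arrays. A transcript cluster is the set of probes that an Affymetrix Rat Gene 1.0 ST array holds for 1 transcribed locus. Where a symbol had several clusters, the one with the highest mean over all arrays of a tissue was used, a choice that does not look at the groups. The choice of these genes was made with earlier results of the same arrays known, so the number of them that differ is a description and supports nothing by itself.

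The animals were male Wistar rats. The infarct was made by tying off the left coronary artery near its origin. In sham-operated animals the suture was placed but left untied. Tissue and blood were taken 2 months after the operation. In sham-operated rats the whole LV was used, and in infarcted rats the LV part that showed no scar, so against sham the part of the LV sampled and the infarct cannot be told apart. The LV arrays came from 6 sham-operated rats, 6 rats with a small infarct (S-MI), 6 with a moderate infarct (M-MI) and 5 with a large infarct (L-MI). PBMCs were profiled in 6 sham-operated animals and in 5 with L-MI. Each array stands for 1 animal and 1 tissue. The number of animals per group limits the precision of every value below. The deposited description of L-MI replicate 1 speaks of a compensated injury in both tissues, whereas its title and infarct size place it in L-MI, and it was kept there.

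Prostaglandins are short-lived lipid signals. Phospholipases free arachidonic acid from membranes, and the cyclooxygenases Ptgs1 (constitutive in most tissues) and Ptgs2 (inducible by injury and inflammation) turn it into the intermediate prostaglandin H2. Terminal synthases then set the product. Ptgis makes prostacyclin, a vasodilator that restrains platelets, Tbxas1 makes thromboxane A2, which constricts vessels and activates platelets, Ptges makes prostaglandin E2, and Ptgds makes prostaglandin D2. Hpgd starts the breakdown of prostaglandins. Ptger2 and Ptger4 are the receptors of prostaglandin E2 that raise cyclic AMP, and Ptgfr is the receptor of prostaglandin F2alpha, which has been linked to growth of cardiomyocytes.

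Of these 10 genes, 5 were higher in LV of rats with L-MI than in LV of sham-operated rats: both cyclooxygenases, the prostacyclin and thromboxane synthases and the prostaglandin F2alpha receptor. Ptgfr rose 2.26-fold, Ptgs2 2.16-fold, Ptgis 1.52-fold, Ptgs1 1.36-fold and Tbxas1 1.35-fold. None of the 10 was lower, and none passed the test after a moderate or small infarct. For scale, 2.08% of all clusters were higher in L-MI than in sham LV and 1.14% were lower. In PBMCs, 1 of the 10, Ptgs2, passed the looser threshold used for that tissue, at 1.29-fold, where 0.486% of all clusters were higher. For the genes that rose together in LV and had an entry in the RefSeq promoter table (build GRCr8), the sequence from 250 bases before to 50 bases after the annotated start is shown first, so that the inducible and the constitutive cyclooxygenase, a synthase and a receptor can be set side by side. Capitals mark matches to the motifs named in the next paragraph, and the sequences run 5′ to 3′.
Ptgs2 promoter, chr13:64713813-64714112 (plus strand): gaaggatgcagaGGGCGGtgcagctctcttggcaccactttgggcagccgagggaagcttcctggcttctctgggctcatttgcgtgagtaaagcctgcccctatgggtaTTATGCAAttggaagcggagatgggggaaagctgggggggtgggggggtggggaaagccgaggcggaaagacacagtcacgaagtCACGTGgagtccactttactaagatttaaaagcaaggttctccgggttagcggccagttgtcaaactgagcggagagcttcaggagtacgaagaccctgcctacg
Ptgs1 promoter, chr3:39981169-39981468 (plus strand): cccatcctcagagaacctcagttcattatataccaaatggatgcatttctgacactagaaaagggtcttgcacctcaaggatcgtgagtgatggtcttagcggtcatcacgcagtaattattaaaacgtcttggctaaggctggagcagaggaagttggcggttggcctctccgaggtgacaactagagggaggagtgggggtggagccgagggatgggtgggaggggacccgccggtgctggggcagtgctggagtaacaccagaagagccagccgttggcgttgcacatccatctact
Tbxas1 promoter, chr4:68631635-68631934 (plus strand): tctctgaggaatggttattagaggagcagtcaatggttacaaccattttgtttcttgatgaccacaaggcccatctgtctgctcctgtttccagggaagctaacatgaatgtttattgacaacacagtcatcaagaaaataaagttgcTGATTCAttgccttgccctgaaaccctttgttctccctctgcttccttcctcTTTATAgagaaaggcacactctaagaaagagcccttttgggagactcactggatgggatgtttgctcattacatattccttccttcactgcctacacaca
Ptgfr promoter, chr2:243425574-243425873 (minus strand): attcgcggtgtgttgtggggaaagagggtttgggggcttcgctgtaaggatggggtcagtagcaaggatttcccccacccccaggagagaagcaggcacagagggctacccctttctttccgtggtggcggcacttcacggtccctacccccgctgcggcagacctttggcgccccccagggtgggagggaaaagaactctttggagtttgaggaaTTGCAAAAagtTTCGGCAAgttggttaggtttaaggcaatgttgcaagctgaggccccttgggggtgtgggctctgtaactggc

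Searched on both strands, the motifs were the TATA box (TATAAA), the GC box (GGGCGG), the E-box (CACGTG), the cyclic AMP response element (TGACGTCA), the AP-1 site (TGANTCA), a C/EBP site (TTNNGCAA) and the kappa B consensus by its name. No matches of different motifs overlapped each other in these 4 promoters, and the 2 C/EBP matches of Ptgfr lay close together. The Ptgs2 promoter held a GC box 238 bases, a C/EBP match 140 bases and an E-box 55 bases upstream of the start, and no TATAAA. The Ptgs1 promoter held none of the 7 motifs. The Tbxas1 promoter, the least GC-rich of the 4 at 43%, held an AP-1 match 102 bases and a TATA box on the opposite strand 50 bases upstream. The Ptgfr promoter held C/EBP matches 34 bases and 23 bases upstream. Among 33469 promoters of the same length, 14.2% held the TATA box, 33.1% the GC box, 6.42% the E-box, 1.83% the cyclic AMP response element, 7.33% the AP-1 site, 10.6% the C/EBP site and 7.51% the kappa B consensus. Of the 9 promoters found for the 10 genes, 3 held the C/EBP site (Ptgs2, Ptges and Ptgfr), and none held the cyclic AMP response element or the kappa B consensus. A match is a run of letters and not a site shown to be used, and letters outside this window were not searched.

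The labels of both tissues were checked against marker genes. The mean log2 signal of 10 cardiomyocyte markers lay between 13.18 and 13.29 over the LV arrays. It ran from 13.26 to 13.28 in sham and from 13.18 to 13.25 in L-MI, where every array lay below sham. None of the 10 passed in L-MI against sham, and their median difference was -0.04. Under the fold threshold were Myh6 (-0.29 ± 0.06, SE, limma adjusted p = 0.0047), Ryr2 (-0.13 ± 0.04, limma adjusted p = 0.032) and Tnni3 (-0.12 ± 0.04, limma adjusted p = 0.036). Actc1 went the other way, by 0.03 ± 0.03. In PBMCs 6 T cell markers averaged between 11.67 and 11.92. Platelet markers (Pf4, Ppbp and Gp9) averaged between 11.65 and 12.80 there and erythroid markers between 9.16 and 12.69, far over the median array signal of about 6.97 to 7.01. L-MI replicate 5 of the PBMCs stood apart: its 6 mast cell markers averaged 7.79, against 5.35 to 5.90 in the other 10 PBMC arrays, and its 12 macrophage and monocyte markers averaged 9.70, against 8.58 to 9.09 in the others. The tissues were apparently normalized apart, and levels are therefore not compared between LV and PBMCs.

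**Figure D1:**
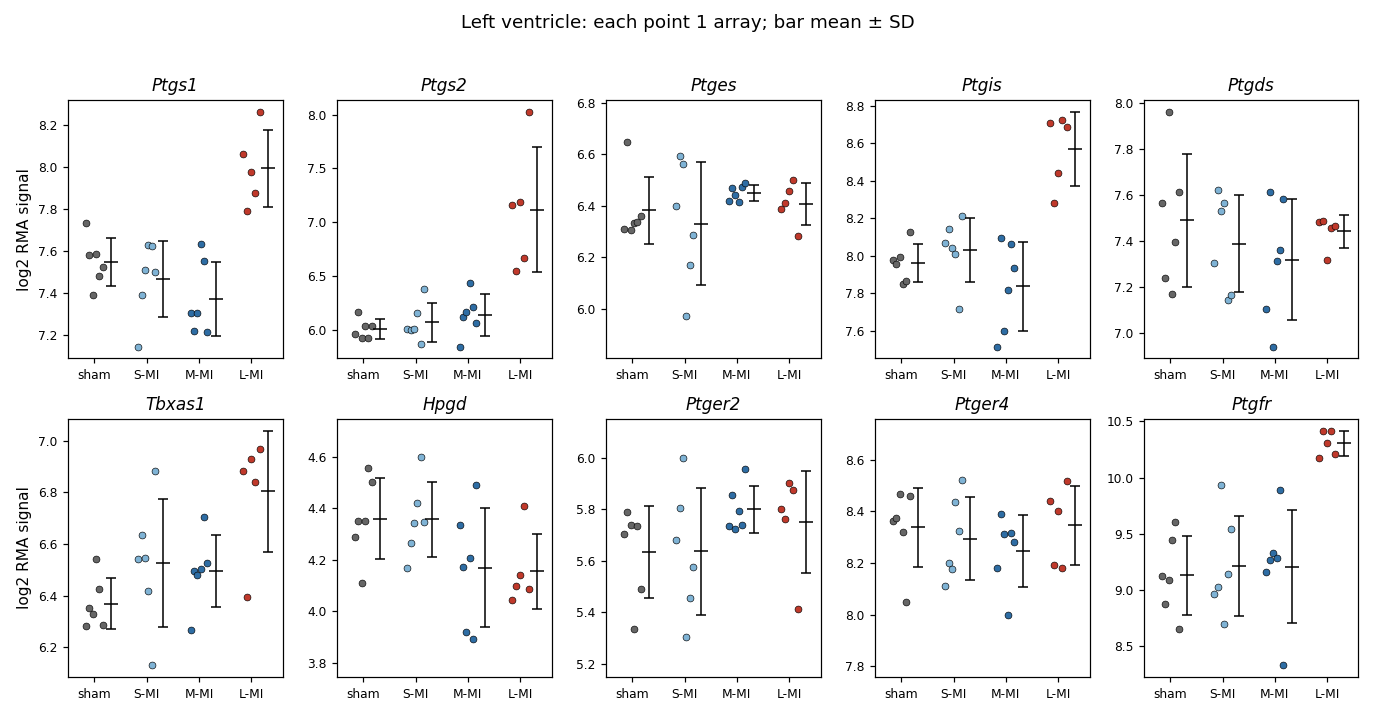
Log2 RMA signal of the 10 genes in LV, 1 panel per gene with its own vertical scale; each point is 1 array, and the bar to the right of each group is its mean ± SD (6 sham, 6 S-MI, 6 M-MI, 5 L-MI). The L-MI points of Ptgs1, Ptgs2, Ptgis and Ptgfr all lie above every sham point, while those of Tbxas1 do so except for 1 array at 6.39.

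Ptgs2, the inducible cyclooxygenase (transcript cluster 10764551), had log2 signals from 5.92 to 6.16 with a median of 5.99 in the 6 sham LVs. The 5 L-MI LVs gave 7.16, 6.54, 7.19, 6.66 and 8.02. Every L-MI array lay above every sham array, and L-MI replicate 5 lay highest. The mean was 7.12 ± 0.58 (SD, n = 5) in L-MI and 6.00 ± 0.09 (SD, n = 6) in sham, so the spread was also wider after a large infarct. The difference was 1.11 ± 0.17 (SE) on the log2 scale, or 2.16-fold, with an adjusted p of 0.00015 (limma, adjusted over all 29214 clusters). Without replicate 5 of L-MI the difference was 0.88, and it still passed.

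Ptgs1, the constitutive cyclooxygenase (10835817), ranged from 7.39 to 7.73 with a median of 7.55 in sham. The L-MI arrays gave 8.06, 7.79, 7.98, 7.87 and 8.26, again without overlap. The mean rose from 7.55 ± 0.12 (SD, n = 6) to 7.99 ± 0.18 (SD, n = 5), a difference of 0.45 ± 0.10 (SE) or 1.36-fold (limma, adjusted p = 0.0035). This fold lies close to the threshold of 1.3. With L-MI replicate 5 left out the difference was 0.38, and the gene then fell under the fold threshold with an adjusted p of 0.016 (limma).

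Among the terminal synthases, Ptgis (10851947), which makes prostacyclin, had the clearest separation. Sham arrays lay between 7.85 and 8.13 with a median of 7.97. The L-MI arrays gave 8.71, 8.28, 8.44, 8.72 and 8.68, all above sham. The difference was 0.60 ± 0.11 (SE), or 1.52-fold, with an adjusted p of 0.00052 (limma). A second cluster annotated to Ptgis (10750966), with a mean of 6.42 in LV against 8.08 for the cluster used, differed in the same direction by 0.26 ± 0.09 (SE) and did not pass (limma, adjusted p = 0.083).

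Tbxas1, the thromboxane synthase (10854645), ranged from 6.28 to 6.54 with a median of 6.34 in sham. The L-MI arrays gave 6.88, 6.39, 6.93, 6.84 and 6.97. Replicate 2 lay within the sham range and the other 4 above it. The difference was 0.43 ± 0.11 (SE), or 1.35-fold (limma, adjusted p = 0.011). The changes of the prostacyclin and the thromboxane synthase are given side by side without a test of one against the other.

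Ptgfr, the prostaglandin F2alpha receptor (10834005), ranged from 8.66 to 9.60 with a median of 9.11 in sham. The L-MI arrays gave 10.17, 10.41, 10.31, 10.42 and 10.21, all above sham. The L-MI arrays lay closer together than those of any other LV group, with an SD of 0.11 against 0.35 in sham, 0.45 in S-MI and 0.50 in M-MI. The mean rose from 9.13 to 10.30, by 1.17 ± 0.22 (SE), or 2.26-fold, with an adjusted p of 0.00097 (limma). This was the largest difference of the 10 genes, although its interval, 0.72 to 1.63 at 95% confidence, holds the estimate for Ptgs2.

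Over all clusters, 2.08% were higher in L-MI than in sham LVs by the same rule (fold at least 1.3 and adjusted p at most 0.05) and 1.14% were lower. Of the 10 genes 5 were higher and 0 lower. For 4 of the 10 genes the L-MI arrays did not overlap sham and lay higher, as was so for 3.1% of all clusters. The median difference of the 10 genes was 0.28, beside -0.01 over all clusters. Since the genes were picked with results of these arrays known, these shares are printed for scale and nothing is read from them.

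The remaining 5 genes did not pass in L-MI. Ptges, the inducible prostaglandin E2 synthase (10844223), had means of 6.38 ± 0.13 (SD, n = 6) in sham and 6.41 ± 0.08 (SD, n = 5) in L-MI, and the difference was bounded by -0.15 and 0.20 at 95% confidence. Ptgds (10843460) had means of 7.49 in sham and 7.44 in L-MI, with an interval of -0.32 to 0.22. Ptger4 (10821689) had means of 8.34 and 8.35, with an interval of -0.18 to 0.19. Ptger2 (10779553) had means of 5.63 and 5.75, with an interval of -0.11 to 0.34. These intervals show that a rise of the size seen for Ptgs2 or Ptgfr lay outside the range for each of the 4. Hpgd, the enzyme of breakdown (10791522), had means of 4.36 in sham and 4.16 in L-MI, a difference of -0.20 ± 0.10 (SE) that did not pass (limma, adjusted p = 0.25). Hpgd was also the 1 gene of the 10 among the dimmest 30% of clusters in LV, where a change in signal can be smaller than the change in RNA. The 2 clusters of Ptger2 carry identical values in all 34 arrays and count once.

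M-MI and S-MI address whether these genes also differ after a smaller infarct. In M-MI against sham, and in S-MI against sham, 0 of the 10 genes passed, as did 0% of all clusters in each of these comparisons (limma), where 2053 and 1850 clusters had an unadjusted p under 0.05. No member reached an unadjusted p under 0.05 in either. Ptgs2 ranged from 5.84 to 6.43 with a median of 6.14 in M-MI and from 5.86 to 6.38 with a median of 6.01 in S-MI. Both ranges overlap the sham range. In M-MI the difference from sham was 0.13 ± 0.16 (SE), and in S-MI it was 0.06 ± 0.16 (SE), with upper 95% limits of 0.47 and 0.40. Both limits lie under the lower limit of 0.76 found for L-MI. For Ptgfr, M-MI gave 0.08 ± 0.21 (SE) and S-MI 0.09 ± 0.21 (SE), with upper limits of 0.51 and 0.52. The smallest unadjusted p in M-MI was that of Hpgd, at 0.063 (limma), with a difference of -0.19, close to its value in L-MI. In S-MI it was that of Tbxas1, at 0.14, with a difference of 0.16.

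**Figure D2:**
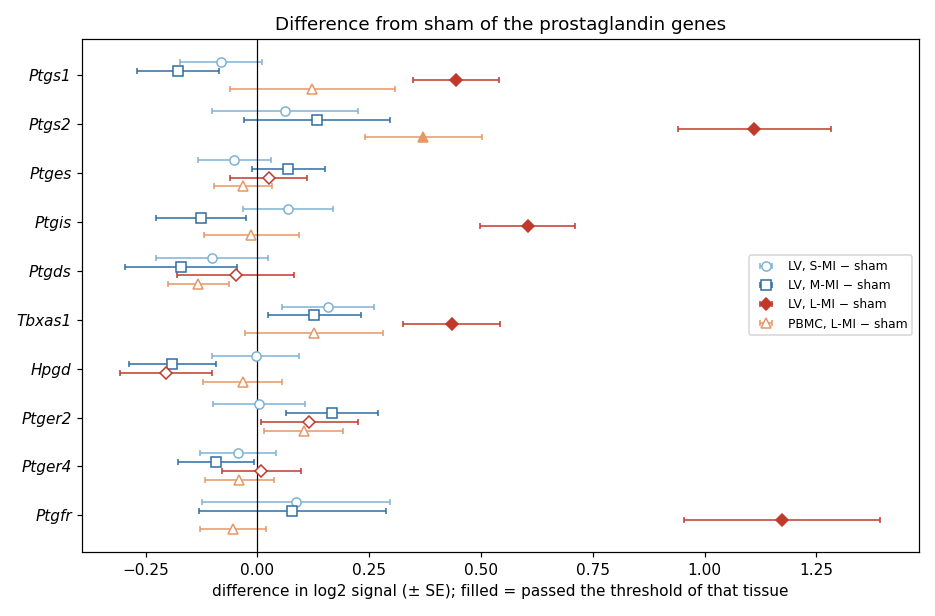
Difference in log2 signal from sham-operated rats for the 10 genes, ± SE, in LV after S-MI, M-MI and L-MI and in PBMCs after L-MI; filled symbols passed the threshold of their tissue. The filled LV symbols (0.43 to 1.17) all belong to L-MI, and the 1 filled PBMC symbol is Ptgs2 at 0.37.

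Set directly against M-MI, L-MI had higher Ptgfr (1.10 ± 0.22, SE), Ptgs2 (0.98 ± 0.17), Ptgis (0.73 ± 0.11) and Ptgs1 (0.62 ± 0.10), all on the log2 scale, with adjusted p between 9.7e-05 and 0.0022 (limma). Those are 4 of the 10 genes, where 1.99% of all clusters were higher. Against S-MI the same 4 genes were higher, by 1.09 ± 0.22, 1.05 ± 0.17, 0.54 ± 0.11 and 0.53 ± 0.10 in that order, where 1.57% of all clusters were higher. No array of L-MI overlapped the M-MI or S-MI arrays for these 4 genes. The share of all clusters for which this held was not computed, so nothing is read from it. Tbxas1 differed by 0.31 ± 0.11 from M-MI (limma, adjusted p = 0.092) and by 0.28 ± 0.11 from S-MI (limma, adjusted p = 0.13), and so did not pass in either. With L-MI replicate 2 left out, Tbxas1 did pass in both, at 0.41 and 0.38. Between M-MI and S-MI 0 of the 10 genes passed, as did 0% of all clusters, of which 3646 had an unadjusted p under 0.05 (limma).

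The order of the LV group means from low to high was sham, S-MI, M-MI, L-MI for Ptgs2. For Ptgfr and Tbxas1 sham was also lowest and L-MI highest, but M-MI lay under S-MI. For Ptgs1 and Ptgis the lowest mean was that of M-MI, at 7.37 and 7.84. For none of these genes did a comparison among sham, S-MI and M-MI pass the test. The share of the variance over the 23 LV arrays that lay between the 4 groups was 71.9% for Ptgis, 71.2% for Ptgs2, 69.7% for Ptgs1, 62.8% for Ptgfr and 44.3% for Tbxas1. For the other 5 genes it was between 7.75% (Ptger4) and 27.1% (Hpgd). The within-group SD in LV ran from 0.15 for Ptges and Ptger4 to 0.39 for Ptgfr.

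Transcripts of other cell types moved in the same arrays. Of 12 macrophage and monocyte markers measured, 11 were higher in L-MI LV by the same threshold, among them Cd68 (0.90 ± 0.11, SE) and Mrc1 (0.84 ± 0.09). For scale, 2.08% of all clusters were higher and 1.14% lower by that threshold. Their mean log2 signal lay between 8.10 and 8.41 in sham and between 8.63 and 9.20 in L-MI. Of 10 fibroblast markers, 7 were higher, led by Postn, which went from 5.81 to 8.81 (limma, adjusted p = 1.0e-07). Their mean lay between 8.37 and 8.58 in sham and between 9.01 and 9.64 in L-MI. Replicate 2 was the lowest of the 5 L-MI arrays on both lists, as it was for Ptgs1, Ptgs2, Ptgis and Tbxas1. For Ptgfr it was not, being the second highest of the 5 at 10.41. Of 8 smooth muscle and pericyte markers 2 were higher (Tagln and Cnn1), while 1 of 6 NK cell markers (Klrb1a) and 1 of 4 erythroid markers (Slc4a1) were lower. No endothelial, mesothelial, adipocyte, platelet, neutrophil, mast cell, T cell or B cell marker passed. The part of any of these cells in the rise of the prostaglandin genes was not tested. In bulk tissue, more cells of a type and more RNA per cell cannot be told apart.

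By profile over the 23 LV arrays, each gene being centred and scaled to an SD of 1, the named genes most like Ptgs2 were Col12a1, Ctsk and Efemp2, with root mean square differences of 0.37, 0.37 and 0.38. Those most like Ptgis were Dbn1 (0.35), Vcan (0.38) and Anxa2 (0.39). Ptgs1 lay nearest to Fasn (0.44), Serpine2 (0.45) and Plod2 (0.46), Tbxas1 to Cmtm7 (0.48), Cyth4 (0.48) and C5ar1 (0.49), and Ptgfr to Hspb3 (0.45), Cda (0.46) and Slc26a5 (0.46). On this scale 0 is an identical profile. The nearest profiles of Ptges, Ptger2 and Ptger4 were Espnl (0.46), Vwa5b1 (0.48) and Ctdspl2 (0.57). Ptgds and Hpgd had no close profile: the nearest genes were Or8k39 at 0.78 and Eif4b at 0.71.

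The rest of the pathway was read from lists of 43 other genes, of which 39 were measured. In L-MI against sham LV, 6 of the 39 rose and 1 fell, with a median difference of 0.03. Over all clusters 2.08% were higher and 1.14% lower by the same rule. These lists were also chosen with results of the arrays known, and nothing is read from their counts. None of the 39 passed in M-MI or S-MI. Of the 13 phospholipases A2 measured, which release arachidonic acid, 1 rose: the secreted Pla2g2d, by 0.74 ± 0.16 (SE; limma, adjusted p = 0.0035). The cytosolic Pla2g4a had a difference of 0.34 ± 0.08 (SE) with an adjusted p of 0.0086 (limma), under the fold threshold. Of 6 other prostanoid synthases 1 rose: Hpgds, the haematopoietic prostaglandin D synthase, went from 5.93 to 6.65, by 0.72 ± 0.15 (SE; limma, adjusted p = 0.0022), whereas Ptgds, the lipocalin-type enzyme for the same product, had a difference of -0.05.

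Of 5 other genes of breakdown and transport 1 fell: Ptgr3, a prostaglandin reductase, by 0.55 on the log2 scale (SE 0.08; limma, adjusted p = 0.00011). Ptgr2, another reductase, had a difference of -0.25 ± 0.07 (SE) with an adjusted p of 0.015 (limma), under the fold threshold. None of the 5 other prostanoid receptors measured passed. The smallest adjusted p among them were those of Ptger3 (-0.18, limma adjusted p = 0.083) and Ptgdr2 (0.20, limma adjusted p = 0.23), and Ptgir, the prostacyclin receptor, had a difference of 0.10. In the neighbouring leukotriene branch, which starts from the same arachidonic acid, 4 of 10 genes rose: Alox5ap (0.66 ± 0.08, SE), Alox5 (0.62 ± 0.11), the leukotriene C4 synthase Ltc4s (0.54 ± 0.10) and the receptor Cysltr1 (0.47 ± 0.11), with adjusted p from 1.1e-05 to 0.0053 (limma). Over all clusters 2.08% were higher and 1.14% lower by the same rule, and nothing is read from the counts of these lists. These 4 genes are well known from myeloid cells, whose markers in the same arrays are given above. The part of such cells in the rise of the 4 genes was not tested.

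**Figure D3:**
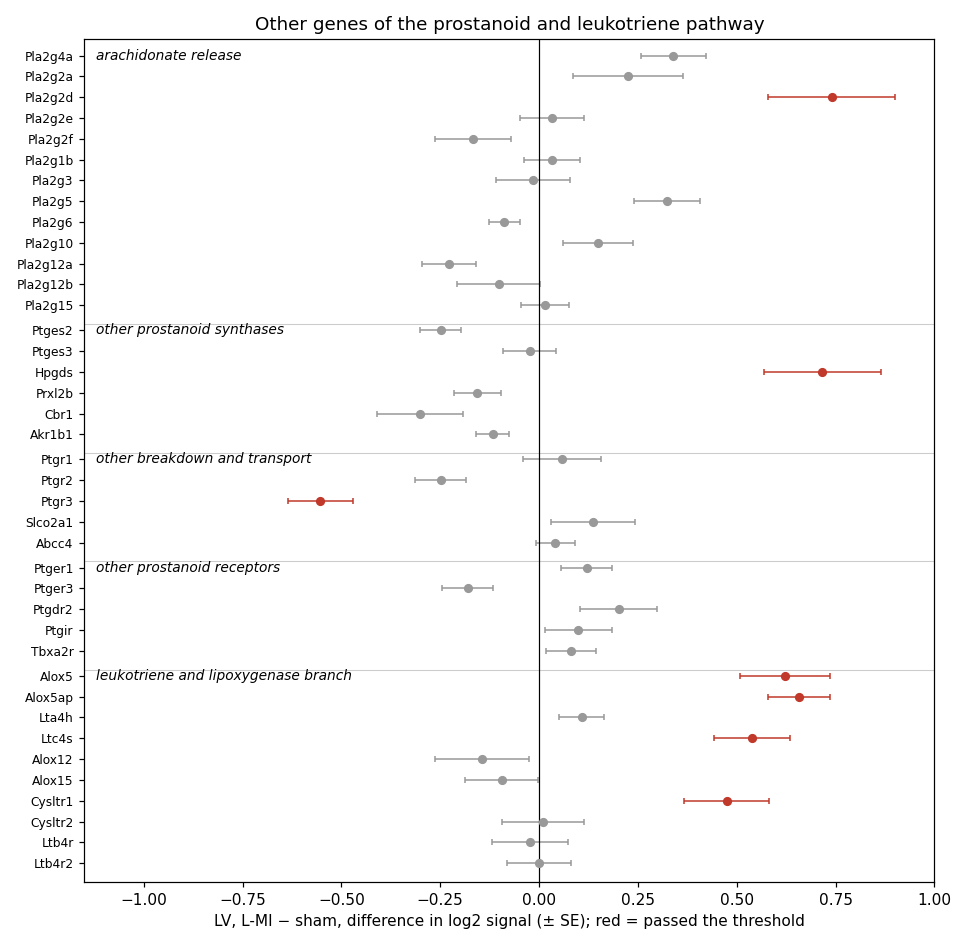
Difference in log2 signal between L-MI and sham LV (± SE) for the 39 other genes of the prostanoid and leukotriene pathway, grouped by role; red points passed the threshold. The 7 red points are Pla2g2d, Hpgds, Alox5, Alox5ap, Ltc4s and Cysltr1 above 0 and Ptgr3 below 0.

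In PBMCs, the question was whether any of the LV differences was mirrored in blood. The threshold for this tissue, a fold of at least 1.2 with an unadjusted p of at most 0.05, follows the methods of the study. Ptgs2 in sham PBMCs lay between 5.68 and 5.96 with a median of 5.77. The L-MI arrays gave 6.15, 5.98, 6.10, 5.84 and 6.75. In L-MI 4 of the 5 arrays exceeded the highest sham value, and replicate 4 lay within the sham range. The difference was 0.37 ± 0.13 (SE), or 1.29-fold, with an unadjusted p of 0.015 (limma) and an exact two-sided permutation p of 0.011 over all splits of the 11 arrays. After adjustment over all clusters the p was 0.9997 (limma), and no cluster of the whole table passed an adjusted threshold in PBMCs, where 1100 had an unadjusted p under 0.05. The call rests on L-MI replicate 5, the array highest on both the mast cell and the macrophage and monocyte markers: without it the difference was 0.22, with an unadjusted p of 0.013 (limma) and a fold under 1.2. The part of these cells in the Ptgs2 signal was not tested.

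Of all marker lists, Hdc (mast cell) and Klrd1 (NK cell) passed in PBMCs, both higher, and 0 of 12 macrophage and monocyte markers did. Their mean lay between 8.67 and 9.09 in sham and between 8.58 and 9.70 in L-MI, where replicate 5 alone exceeded sham. The median difference of the 12 markers was 0.04. The largest differences were those of C1qa, C1qb and C1qc, at 0.45 ± 0.35 (SE), 0.51 ± 0.38 and 0.50 ± 0.41. Those of Adgre1 (-0.09), Lyz2 (-0.02), Ccr2 (-0.02) and Csf1r (-0.005) were negative. The other 9 genes did not pass in PBMCs. By the same rule 0.486% of all clusters were higher and 0.438% were lower, and of the 10 genes 1 was higher and 0 lower. The median difference of the 10 was -0.02, beside -0.005 over all clusters. Ptgs1, which platelets carry in abundance, varied from 11.63 to 12.47 in sham and from 11.93 to 12.80 in L-MI, with a difference of 0.12 ± 0.18 (SE). Sham replicate 4 was the lowest array both for Ptgs1, at 11.63, and for the mean of the platelet markers, at 11.65, and L-MI replicate 1 the highest for both, at 12.80. The part of platelets in the level of Ptgs1 was not tested. Tbxas1 ranged from 8.30 to 8.82 in sham and from 8.24 to 9.23 in L-MI, a range that spans that of sham, and differed by 0.13 ± 0.15 (SE).

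Ptgis in PBMCs lay between 6.49 and 6.57 in sham. In L-MI it gave 6.40, 6.23, 6.46, 6.48 and 6.998, so that 4 arrays were under the sham range and replicate 5 above it, and the mean difference was -0.01 ± 0.11 (SE). Ptgds had the lowest exact p after Ptgs2, at 0.026 (two-sided permutation test over all splits), with a difference of -0.13 ± 0.07 (SE), under the fold threshold. Its L-MI arrays gave 6.14, 6.27, 5.87, 6.17 and 6.20 against 6.21 to 6.37 in sham, with only 1 L-MI array inside the sham range. Ptger4 differed by -0.04 ± 0.08 (SE), Ptger2 by 0.10 ± 0.09, Ptges by -0.03 ± 0.06, Hpgd by -0.03 ± 0.09 and Ptgfr by -0.05 ± 0.07. Hpgd and Ptgfr were among the dimmest 30% of clusters in PBMCs, a limit of 5.93 on the mean over all PBMC arrays. Ptgs2 lay just over it at 5.96, with means of 5.80 in sham and 6.17 in L-MI.

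**Figure D4:**
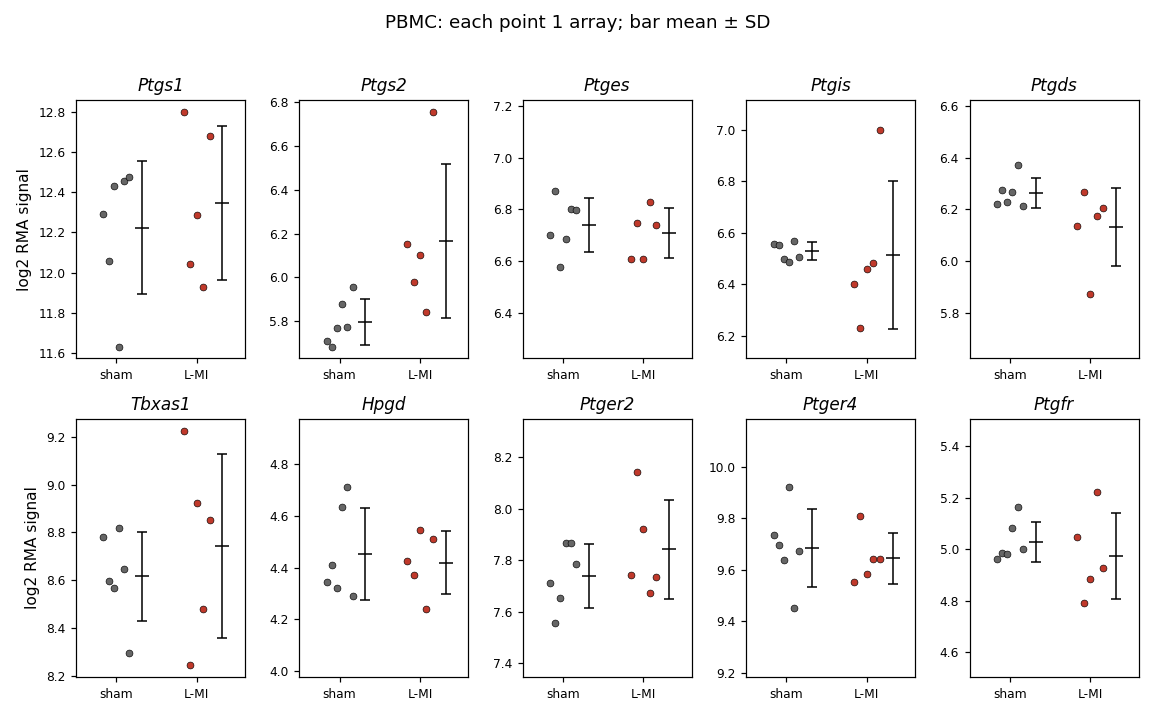
Log2 RMA signal of the 10 genes in PBMCs, 1 panel per gene with its own vertical scale; each point is 1 array, and the bar to the right of each group is its mean ± SD (6 sham, 5 L-MI). The Ptgs2 points of L-MI reach 6.75 and overlap sham at 5.84, and the ranges of the other 9 genes overlap as well.

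None of the 39 other pathway genes passed in PBMCs. The lowest p-values in each list belonged to Pla2g12b and Pla2g12a among the phospholipases, with differences of 0.12 and 0.16 on the log2 scale. Among the synthases they belonged to Ptges2 (-0.10, limma unadjusted p = 0.29) and Hpgds (-0.45, limma unadjusted p = 0.41). Among the genes of breakdown they belonged to Ptgr3 (-0.15, limma unadjusted p = 0.023) and Ptgr1 (0.14, limma unadjusted p = 0.041), both under the fold threshold. Ptgr3 was also lower in LV, by the values given above. After adjustment the smallest p of any cluster in PBMCs was 0.54 (limma). The receptors Ptger1 (-0.12, limma unadjusted p = 0.047, under the fold threshold) and Tbxa2r (0.12, limma unadjusted p = 0.17) had the lowest p in their list. In the leukotriene list these were Cysltr1 (0.23, limma unadjusted p = 0.062) and Alox5 (0.46, limma unadjusted p = 0.25). The 4 leukotriene genes that rose in LV had differences in PBMCs of -0.09 (Alox5ap), 0.46 (Alox5), -0.02 (Ltc4s) and 0.23 (Cysltr1).

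Whether the L-MI difference itself was larger in LV than in PBMCs was tested in 1 model over the 22 arrays of sham and L-MI. The difference between the tissues was 1.23 ± 0.17 (SE) on the log2 scale for Ptgfr (limma, adjusted p = 0.00019) and 0.62 ± 0.14 for Ptgis (limma, adjusted p = 0.018). These are 2 of the 10 genes, where 2.55% of all clusters passed. In PBMCs Ptgfr was among the dimmest 30% of clusters, with a mean of 5.00. Ptgis had a mean of 6.52 there, under the array medians of 6.97 to 7.01. At low signal a change in RNA can be hidden, so both results rest on the rise in LV. For Ptgs2 the LV difference of 1.11 exceeded the PBMC difference of 0.37 by 0.74 ± 0.26 (SE), which did not pass (limma, adjusted p = 0.16). Without LV L-MI replicate 2 it was 0.88 and passed (limma, adjusted p = 0.047). For Ptgs1 the tissues differed by 0.32 ± 0.21 (limma, adjusted p = 0.57) and for Tbxas1 by 0.31 ± 0.19 (limma, adjusted p = 0.54), so that a rise in LV alone is not shown for these 2 genes. The model took the arrays as independent, since the labels do not say which LV and PBMC arrays share a rat.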

How the data were processed

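LV and PBMC RNA from 34 samples was hybridised to Affymetrix Rat Gene 1.0 ST arrays, 1 per rat and tissue. Per the labels, the authors normalized the arrays with RMA in the Partek software (versions not given in the sources used here) and deposited log2 values, a base inferred from RMA. Array medians ran from 6.52 to 6.61 in LV and from 6.97 to 7.01 in PBMCs. RMA shrinks changes of dim clusters. The platform annotation gave 1 symbol for 15310 of 29214 clusters, several for 323 and none here for 13581.

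From these values, limma 3.58.1 in R 4.3.3 fitted the 4 LV groups over 23 arrays, the 2 PBMC groups over 11, and tissue by group over 22. LV calls needed 1.3-fold or more with p at or under 0.05 after Benjamini-Hochberg adjustment over all clusters. PBMC calls needed 1.2-fold or more with p at or under 0.05 before adjustment, and the tissue test an adjusted p at or under 0.05. The limma p-values set a difference between groups against the spread between arrays within groups, which limma moderates over all clusters. Members, gene lists, marker lists and tests were chosen with earlier results of these data known. All 10 members are named, with the list genes that passed (the 2 with the smallest p where none did) and the 3 nearest profiles of each member that rose (the nearest of the others). Pla2g4a, Ptgr2, Ptgir, Myh6, Ryr2, Tnni3, Actc1, Cd68, Mrc1, Postn, Tagln, Cnn1, Klrb1a, Slc4a1, Hdc, Klrd1, C1qa, C1qb, C1qc, Adgre1, Lyz2, Ccr2 and Csf1r were named after their values were seen. Lists held 18 entries that were not matched and are not reported, among them Ptgdr and Vwf. Promoters came from RefSeq (GRCr8) for 9 members, and Ptgis had none. The fits were tested on simulated data. Alternatives were variance moderation, trend, array weights, a filter on dim clusters, centring, repeated quantile normalization, thresholds, the replicate block, 2-group fits, averaging of clusters and leaving out each array. Figures were drawn with Python 3.11.15 and matplotlib 3.10.9.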

Additional observations from a re-analysis of the deposited data

Results flagged for a closer look

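Of 60 sets of arrays (10 genes in 6 groups), 6 held 1 array far from the rest by Dixon's test, where chance alone flags about 5% of sets. In L-MI LV, Tbxas1 in replicate 2 was 6.39 while the other 4 arrays lay between 6.84 and 6.97 (gap over range 0.777). In the same group, Ptgds in replicate 3 was 7.32 against 7.46 to 7.48 (0.839), Hpgd in replicate 4 was 4.41 against 4.05 to 4.14 (0.734), and Ptger2 in replicate 5 was 5.41 against 5.76 to 5.90 (0.717). In sham LV, Ptges in replicate 2 was 6.65 against 6.30 to 6.36 (0.835), and Ptger4 in replicate 5 was 8.05 against 8.32 to 8.47 (0.646).

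The L-MI difference was larger in LV than in PBMCs by 1.23 for Ptgfr and by 0.62 for Ptgis on the log2 scale, both past the adjusted threshold of the model over both tissues. Both genes had low mean signals in PBMCs, 5.00 for Ptgfr and 6.52 for Ptgis, where a change in RNA can be hidden.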

How the results depend on the processing

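The counts of the 10 genes called in LV were 5 (L-MI against sham), 4 (against M-MI), 4 (against S-MI) and 0 in the other 3 comparisons, and none of the 10 other settings moved them. Leaving out 1 array gave 4 to 5, 4 to 5 and 4 to 5 calls, and 0 in the rest. The call lost was Ptgs1 without L-MI replicate 5, and the call gained was Tbxas1 without L-MI replicate 2. In PBMCs the 1 call (Ptgs2) became 0 with Benjamini-Hochberg adjusted p, because the threshold is then set over all clusters, and leaving out 1 array gave 0 to 1. The tissue test gave 2 calls under all 7 other settings and 2 to 3 when 1 array was left out. Of 2471 values of single genes, 2465 kept their side of the threshold and no called value changed sign. Among values not called, 66 changed sign, none larger than 0.17.

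The calls over all clusters changed with the fold threshold. Without it, L-MI against sham had 2769 in place of 941, against M-MI 2196 in place of 784, against S-MI 2258 in place of 725, and PBMCs 1100 in place of 270. With adjusted p PBMCs had 0, and without PBMC L-MI replicate 3 they had 475. In M-MI against sham, 1 cluster passed without sham replicate 1.

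The labels do not say whether the replicate numbers pair arrays. Same-numbered LV arrays of different groups, which come from different rats, deviated with correlations from -0.26 to 0.26 (33 pairs). LV and PBMC arrays with the same group and number gave -0.05 to 0.14 (11 pairs). Their mean was 0.03, against -0.007 for other numbers. Correlations between 2 different tissues cannot decide whether the arrays share a rat. With the replicate number as a block, the calls among the 10 genes were 5, 4, 4 and 0 in LV, 1 in PBMCs and 2 in the tissue test, where the estimated correlation of the block was 0.03. Over all clusters the block gave 457 calls in PBMCs in place of 270. Signals near the dim end, as for Hpgd and for Ptgfr and Ptgs2 in PBMCs, limit what a change could show.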
